A study of Mus musculus with 6 samples.

Results

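Growth hormone from the pituitary acts on hepatocytes through its receptor, the kinase JAK2 and STAT transcription factors. Among the genes it induces there are Igf1, which encodes the growth factor IGF-1 of the circulation, and Cish, a member of the SOCS family of feedback inhibitors. Secreted binding proteins carry IGF-1: the protein of Igfbp3 holds most of it in the blood, and that of Igfbp4 mainly restrains its access to the receptor until a protease cleaves it. In rodents, food intake and postnatal age are known to alter this axis.

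Values of Igf1, Igfbp3, Igfbp4 and Cish were taken from liver RNA of 3 male mice, with 1 mouse per group, hybridised to expression arrays. All spots whose single annotated gene symbol was one of these 4 were used, which gave 5 probes of 16896 spots and 4 of 7151 named genes. Igf1 had 2 probes and each of the others 1. All 5 lay on array B, the second of the pair of arrays used per liver, so that every value below comes from 1 hybridisation per mouse. An ad libitum mouse was killed at 17 days, an ad libitum mouse at 174 days and a calorie-restricted mouse at 177 days, per the labels, and the unit of the first age rests on its label alone. Strain and the degree of restriction were not given in the sources used here. The 3 comparisons between pairs of mice share animals.

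With a single mouse in each group, the differences below carry no error between animals and none was tested. The array B median was 402.5 intensity units at 17 days, 60.8 at 174 days and 332.8 under restriction, so the array of the 174-day mouse was the dimmest. Log2 intensities of that array correlated across spots with those of the other arrays at a Pearson r of 0.964 (17-day) and 0.936 (restricted), against 0.975 for those arrays with each other. Array values were therefore put on a common distribution (quantile normalization) before differences were taken, and differences are given in log2 units, where 1 is 2-fold. A probe entered if its mean over the mice was above the 50th percentile for its kind of array, which 4 of the 5 probes did, 1 for each gene. The hepatocyte marker Alb, the albumin gene, lay at the 99.95th brightness percentile of array A, for a sample labelled as liver. Apoa1 at the 99.3rd, Serpina1e at the 97.2nd and Ttr at the 96.5th were also among the brightest spots. Of the same marker list, Fga was lower, at the 66.8th, and Apob, at the 42.8th, did not enter. In whole liver RNA, fewer cells of a type and less RNA per cell cannot be told apart.

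By its brighter probe and before correction for spot place, Igf1, the growth factor itself, lay close to the same level in the 3 mice. Its brighter probe read 489.9 at 17 days, 72.8 at 174 days and 427.9 under restriction. Set against the median spot of each array these were 1.22, 1.20 and 1.29 times, which puts the 3 mice within a narrow band. The normalized difference was -0.04 log2 for 174 against 17 days, 0.17 for the restricted against the ad libitum mouse and 0.12 for the restricted against the 17-day mouse. Once corrected for the place of the spot on the array, these were 0.34, -0.37 and -0.04. Its dimmer probe, at the 47.5th brightness percentile and thus not entering, read 324.9, 62.3 and 313.6 in the same order of mice. Those readings were 0.807, 1.02 and 0.942 times the array medians, lowest in the 17-day mouse. The dimmer probe differed by 0.35, -0.11 and 0.24 in the same 3 comparisons. The probes were thus 0.40 apart in the age comparison, 0.28 in the diet comparison and 0.12 in the last, and they had opposite signs in the first and second. Among 483 genes with exactly 2 entering probes, the median gap between probes was 0.31, 0.52 and 0.41 in these comparisons, so the Igf1 probes lay further apart than the median gap for age and closer in the other comparisons. With both probes Igf1 was at 0.15, 0.03 and 0.18.

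**Figure D1:**
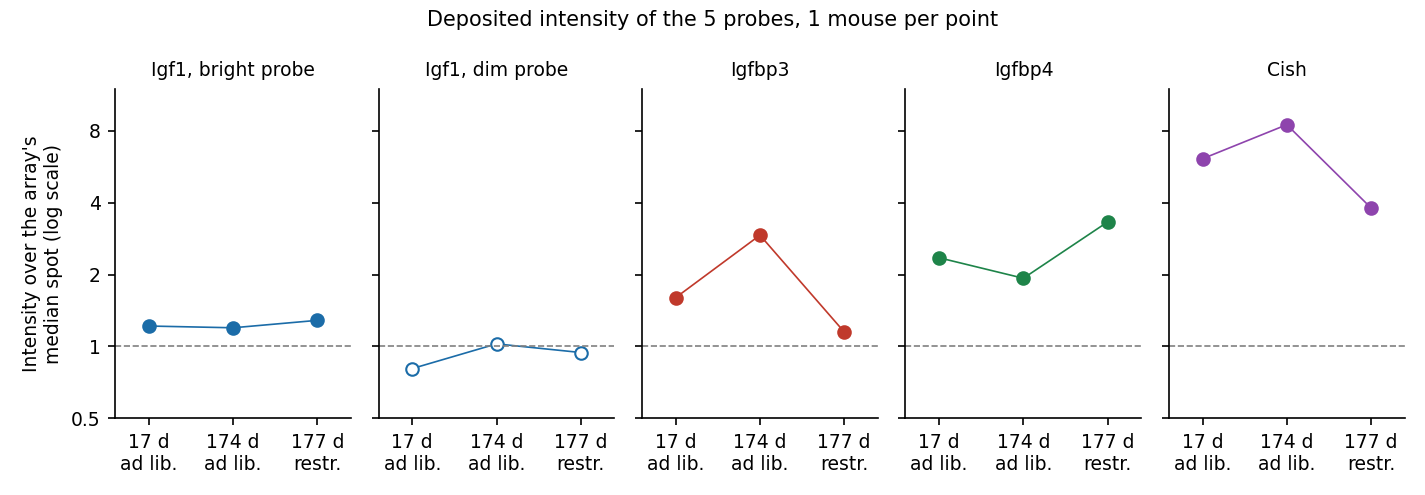
Deposited intensity of each of the 5 probes on array B, divided by the median spot of its array (vertical axis, log scale), in the 3 mice (horizontal axis, 1 point per mouse, lines join a probe's points). Filled points are probes that entered and open points the dimmer Igf1 probe; Igfbp3 was 1.60, 2.93 and 1.15 times the median, Igfbp4 2.35, 1.93 and 3.32, and Cish 6.12, 8.50 and 3.81.

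The binding protein genes Igfbp3 and Igfbp4 showed opposite patterns. Igfbp3, the gene of the main carrier of IGF-1 in blood, was highest in the ad libitum mouse of 174 days and lowest in the restricted mouse. Its spot read 644.5 at 17 days, 177.9 at 174 days and 382.6 under restriction. Relative to the median spot of each array these were 1.60, 2.93 and 1.15 times, and the spot stood at the 62.8th, 74.7th and 54.5th percentile of its array. The normalized difference was 0.73 log2 for age, -1.19 for diet, which is 2.27-fold lower in the restricted mouse, and -0.45 for the restricted against the 17-day mouse. The diet value was -0.35, below 2-fold, once corrected for the place of the spot on the array.

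Igfbp4, whose protein restrains IGF-1, had the reverse order, highest in the restricted mouse and lowest in the 174-day mouse. Its spot read 946.9 at 17 days, 117.4 at 174 days and 1107 under restriction. These were 2.35, 1.93 and 3.32 times the array medians, at the 72.5th, 65.9th and 81.1st percentile. The differences were -0.40 for age, 0.996 for diet, just short of 2-fold, and 0.59 for the restricted against the 17-day mouse.

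The ratio of Igfbp4 to Igfbp3 intensity is not altered by a common factor on all spots of an array. Its change was therefore also taken from the deposited values, although array differences that vary with intensity or spot place can still alter the ratio. From the 17-day to the 174-day mouse the ratio was 2.23-fold lower, and in the restricted mouse it was 4.38-fold higher than in the 174-day mouse and 1.97-fold higher than in the 17-day mouse. Such a ratio shows that the 2 spots differed unequally, not which of them changed. In normalized log2 units these changes were -1.14, 2.18 and 1.04. Once corrected for the place of the spots on the array, they were -0.46, 1.26 and 0.80. The 60 bases before the start sites of this pair of genes are shown here because their spots differed in opposite directions. Capitals mark TATA, a core promoter motif that reads the same on both strands. The sequences are from RefSeq (GRCm38.p6), 5′ to 3′, Igfbp3 at chr11:7213924-7213983 on the minus strand and Igfbp4 at chr11:99041184-99041243 on the plus strand.
Igfbp3: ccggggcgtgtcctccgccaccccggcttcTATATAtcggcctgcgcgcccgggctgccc
Igfbp4: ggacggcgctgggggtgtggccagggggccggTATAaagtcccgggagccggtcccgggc
Igfbp3 holds 2 overlapping matches and Igfbp4 holds 1, while 10.5% of 32851 promoter windows of the same length hold at least 1. The arrays measured RNA, and nothing in these data bears on the use of these letters.

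Cish, the feedback inhibitor whose transcription is a common readout of growth hormone signalling through STAT5, was lowest in the restricted mouse. Its spot was the brightest of the 5 relative to its array and read 2464 at 17 days, 516.9 at 174 days and 1267 under restriction. These were 6.12, 8.50 and 3.81 times the array medians. In rank the spot stood at the 89.7th, 89.8th and 84.0th percentile. Before correction for spot place, the ad libitum mice were thus alike in rank and the restricted mouse below them. The normalized differences were 0.02 for age, -0.60 for diet and -0.59 for the restricted against the 17-day mouse, all below 2-fold. Once corrected for the place of the spot on the array, these were -0.24, -0.15 and -0.39. The 17-day mouse was then highest and the restricted mouse still lowest. The uncorrected age value also depended on the scaling. With each array centred on its median, Cish was 0.47 higher in the 174-day mouse and 1.16 lower in the restricted than in the 174-day mouse. That scaling also moved the median of all genes from -0.03 to 0.21 in the age comparison and from -0.04 to -0.31 in the diet comparison.

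The letters TTCNNNGAA, which STAT5 and related factors are known to bind and which read the same on both strands, were searched from 250 bases before to 50 bases after the start sites of the 4 genes. Cish held 2 matches, beginning at bases 1 and 12 after its start site, and Igf1, Igfbp3 and Igfbp4 held none in these windows. The stretch is shown because Cish is the STAT5 readout among the 4. It lies at chr9:107296654-107296683 on the plus strand (RefSeq, GRCm38.p6), with the matches in capitals.
Cish: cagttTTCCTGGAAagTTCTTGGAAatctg
At least 1 match was found in 8.30% of 32851 promoter windows of the same length and at least 2 in 0.457%. A match is a run of letters and was not measured as a binding site here.

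Of the 4 genes, 0 were at least 2-fold apart between the 174-day and the 17-day mouse, where 1.16% of 3865 genes were. In the diet comparison 1 of 4, Igfbp3, was at least 2-fold apart, beside 6.86% of all genes, with 4.61% at least 2-fold lower. With the correction for spot place 0 of 4 were, beside 114 of 3869 genes. Between the restricted and the 17-day mouse 0 of 4 passed, against 1.58% of all genes. The 87 higher and 178 lower genes of the diet comparison became 50 and 613 with median centring, and the age counts of 28 and 17 became 61 and 14. The members' median was -0.01 for age, -0.22 for diet and -0.16 for the restricted against the 17-day mouse, beside -0.03, -0.04 and -0.09 over all genes, and in each comparison 2 members lay above 0 and 2 below.

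Placed among all 3865 genes, Igfbp3 and Igfbp4 lay toward opposite ends and Igf1 near the middle. Igfbp3 was higher than 98.2% of genes in the age comparison and higher than 2.28% in the diet comparison. For Igfbp4 the shares were 11.6% and 97.7%, and 94.6% between the restricted and the 17-day mouse. Cish was above 55.6% of genes for age, 16.2% for diet and 9.81% between the restricted and the 17-day mouse, and Igf1 above 47.9%, 65.3% and 70.6%. The age and diet comparisons share the 174-day array, so a high value there lowers the second as it raises the first.

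**Figure D2:**
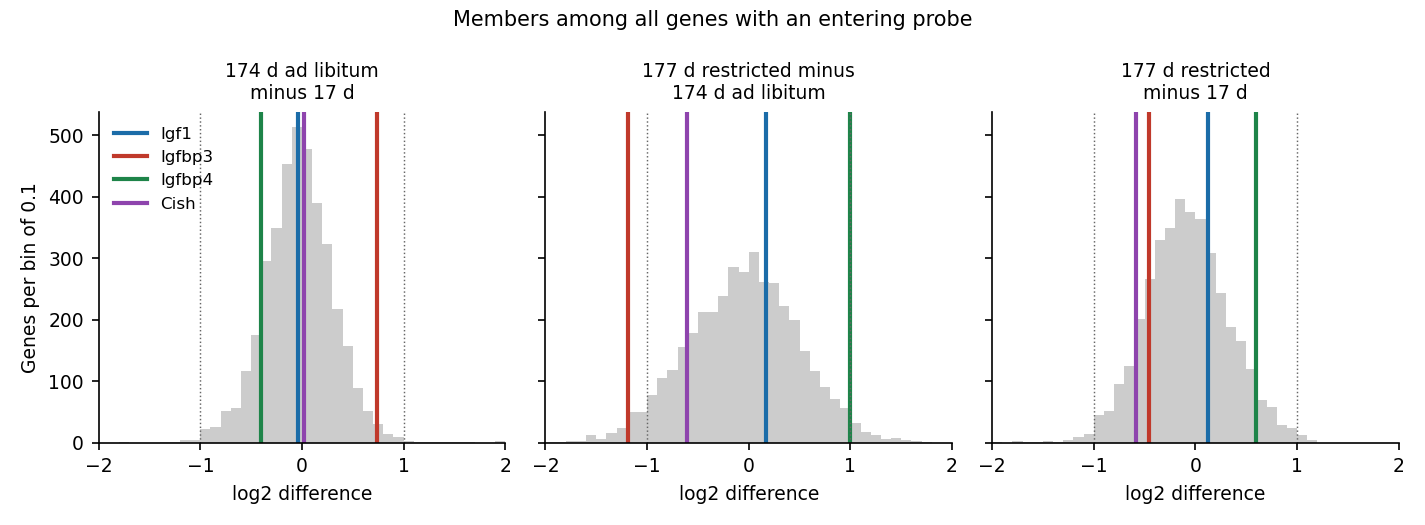
Distribution of log2 differences over the 3865 genes with an entering probe (grey bars, genes per bin of 0.1) in the 3 comparisons, with coloured lines at the members and dotted lines at 2-fold. Igfbp3 (-1.19) lies left of the 2-fold line in the diet panel and Igfbp4 (0.996) on the other side; 16, 12 and 2 genes lie outside the plotted range in the panels from left to right.

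Differences on these arrays also varied with the place of a spot in the deposited order, so each member was set beside spots that share its place. Every array was taken as 16 blocks of equal length in that order, which leaves 15 other spots of array B at the same place as each probe, of other genes. At the place of Igfbp3, 14 of the 15 other spots were lower in the restricted than in the 174-day mouse, with a median of -0.73 log2 and a range from -1.51 to 0.01. Igfbp3 itself was at -1.19, and 2 of these 15 spots were lower still. In the age comparison their median was 0.49, with 12 of 15 above 0. Over array B as a whole, the medians of places had an SD of 0.34 log2 in the diet comparison, and 95% of them lay between -0.70 and 0.61. After the median deviation of blocks and places was removed, Igfbp3 was at 0.11 for age, -0.35 for diet and -0.24 between the restricted and the 17-day mouse, so the 2-fold diet difference did not stay with this correction.

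For Igfbp4 the spots at its place did not share its diet difference. Their median was 0.04 in the diet comparison, with 8 of 15 above 0, and -0.12 between the restricted and the 17-day mouse. Igfbp4 was higher than all 15 of them in both comparisons. In the age comparison 13 of the 15 lay below 0, with a median of -0.12 beside -0.40 for Igfbp4. After the correction it was at -0.35 for age, 0.91 for diet and 0.56 between the restricted and the 17-day mouse, close to the uncorrected values. The corrected difference between Igfbp4 and Igfbp3 was -0.46 log2 for age, 1.26 for diet and 0.80 for the last, with the signs of the uncorrected -1.14, 2.18 and 1.04.

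The place of the Cish spot shared part of its diet difference. There 13 of 15 other spots lay below 0, with a median of -0.44 beside -0.60 for Cish. Between the restricted and the 17-day mouse, a pair that leaves out the dim array, their median was -0.19 and Cish at -0.59 was lower than all 15. Corrected values of Cish were -0.24, -0.15 and -0.39. At the place of the brighter Igf1 probe, 15 of 15 other spots were higher in the restricted than in the 174-day mouse, with a median of 0.61, and Igf1 at 0.17 was lower than all of them. The corrected values of this probe were 0.34 for age, -0.37 for diet and -0.04 for the last. Those of the dimmer Igf1 probe were 0.23, 0.31 and 0.54, so the diet difference had opposite signs in the 2 probes before and after correction. No direction for Igf1 between these mice held over both probes and both versions in the diet comparison.

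**Figure D3:**
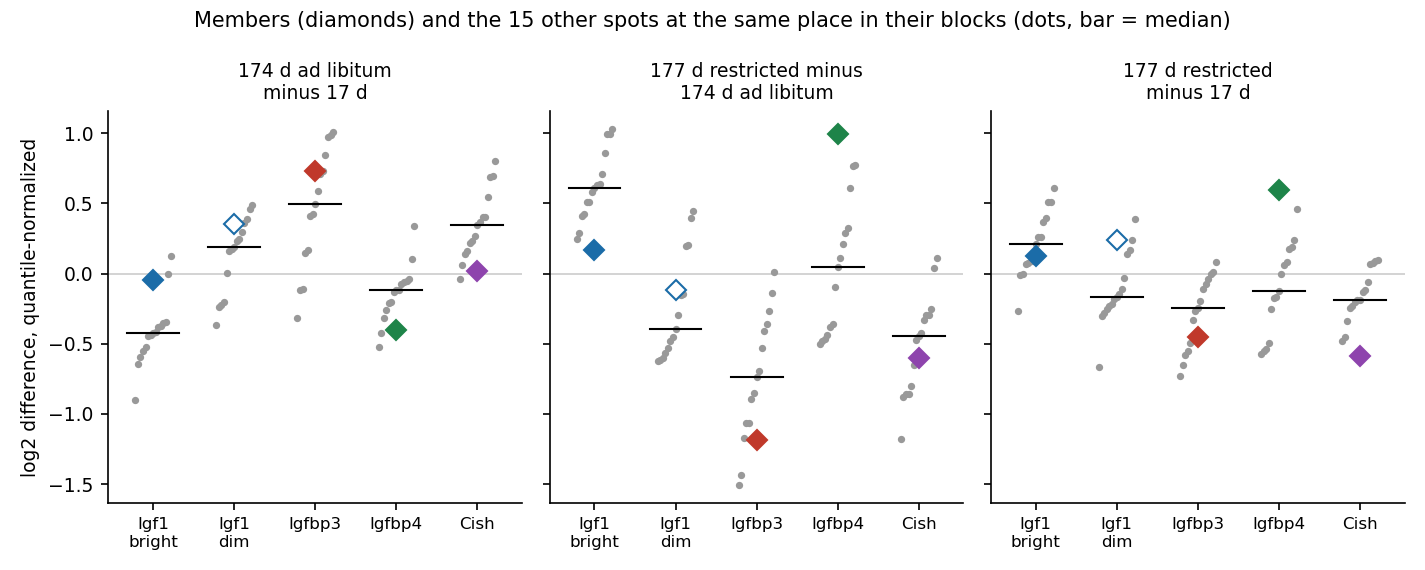
Log2 differences of each member probe (diamonds, open for the dimmer Igf1 probe) and of the 15 other spots of array B at the same place in their blocks (grey dots, bar at their median) in the 3 comparisons. Igfbp4 lies above all 15 in the diet and the restricted minus 17-day panels, whereas the 15 spots around Igfbp3 in the diet panel have a median of -0.73.

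The order of the mice was then compared over the alternatives that put the arrays on a common scale. Igfbp3 was highest in the 174-day mouse and lowest in the restricted mouse in 13 of 13 settings, and Igfbp4 highest in the restricted and lowest in the 174-day mouse in 13 of 13. Cish was lowest in the restricted mouse in 14 of 14 settings and highest in the 174-day mouse in 12, with the 17-day mouse highest in the other 2. For Igf1 the restricted mouse was highest in 11 of 13 settings, and the 174-day mouse in the 2 that removed medians of places within a block. These settings include the main one, reuse the same spots and are no replicates. Removing the brightness filter, the other floor, the brightest probe, array B alone and dropping spots apart in 1 mouse left Igfbp3, Igfbp4 and Cish unchanged. All but the first of these also left Igf1 unchanged, whose dimmer probe enters without the filter. With 1 bright spot per gene, settings that left a gene unchanged could not alter its order, so only the remaining ones bear on it. Over all settings the diet difference ran from -1.35 to -0.35 for Igfbp3 and from 0.78 to 1.07 for Igfbp4. It ran from -1.16 to -0.15 for Cish and from -0.39 to 0.19 for Igf1. Between the restricted and the 17-day mouse the ranges were narrower, from -0.52 to -0.23 for Igfbp3, 0.50 to 0.67 for Igfbp4, -0.69 to -0.39 for Cish and -0.05 to 0.18 for Igf1.

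**Figure D4:**
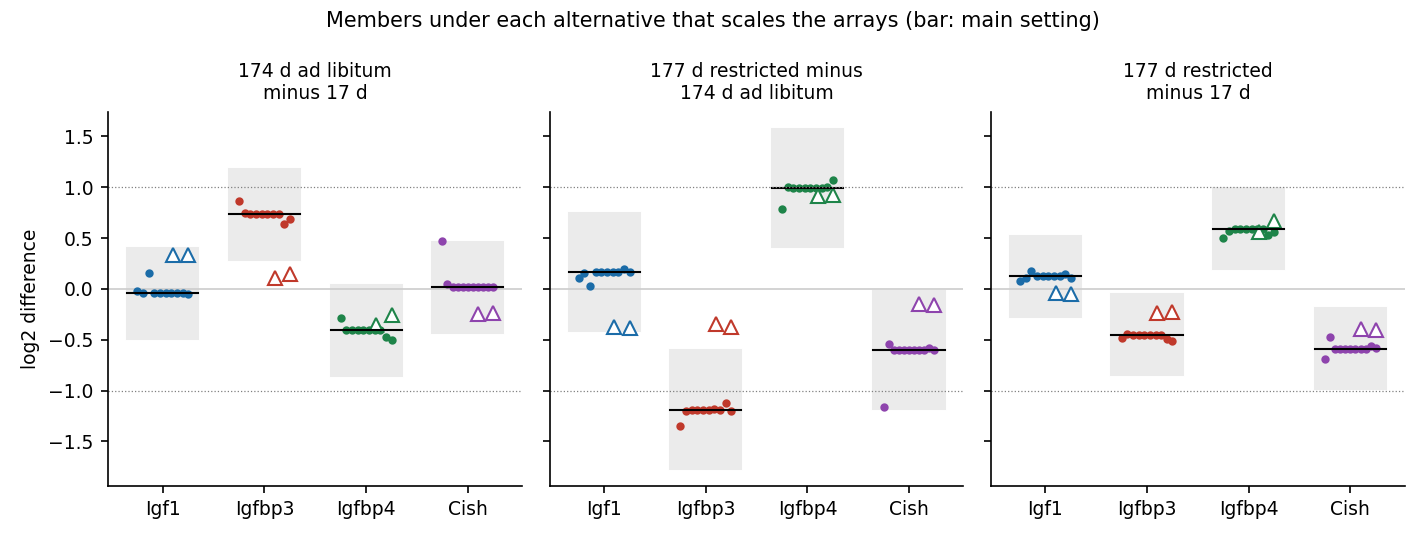
Log2 difference of each member in the 3 comparisons under the main setting (black bar) and under each alternative that scales the arrays (dots, triangles for the corrections that remove medians of places within a block). Grey boxes span 1 SD of probe differences within a gene on either side (0.45, 0.58 and 0.40 log2 from left to right), and dotted lines mark 2-fold; the Igfbp3 triangles lie outside its box in the age and diet panels.

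The SD of differences between entering probes of one gene, pooled over 557 genes with at least 2 such probes, was 0.45 log2 for age, 0.58 for diet and 0.40 for the restricted against the 17-day mouse. It is a spread between spots within the same mice and gives no error between animals. Before the correction for place, Igfbp3 in the age and diet comparisons, Igfbp4 and Cish in the diet comparison and all but Igf1 in the last lay further from 0 than this SD, while Igfbp4 (-0.40) and Cish (0.02) in the age comparison and Igf1 throughout did not. This SD came from uncorrected differences, and none was computed after the correction. Set against it, only Igfbp4 of the entering member probes was further out once corrected, at 0.91 for diet and 0.56 in the last comparison. Igfbp3 was then at 0.11, -0.35 and -0.24, and Cish at -0.15 for diet and -0.39 in the last, just inside. Except for Igf1, each member had a single probe, so no second spot was there to set beside it.

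The other genes of the axis came from lists of growth hormone signalling, SOCS proteins, IGF ligands and carriers, IGFBP proteases, receptor signalling and growth hormone responsive genes. Of 114 such genes beside the members, 42 had a probe and 25 an entering one. In the age comparison 0 of the 25 were 2-fold apart, 14 lay above 0 and 10 below, and the median was 0.05, beside -0.03 over all genes. In the diet comparison 1 was at least 2-fold lower and 0 higher, with 10 above 0, 15 below and a median of -0.05 beside -0.04. Between the restricted and the 17-day mouse 0 were 2-fold apart, 8 lay above 0 and 17 below, and the median was -0.21 beside -0.09. Over all 3865 genes the shares past 2-fold in these comparisons were 1.16%, 6.86% (4.61% lower) and 1.58%. The gene that was 2-fold lower in the diet comparison was Mtor, the kinase of nutrient and growth factor signalling, at -1.08, and at -0.41 after the correction for place.

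Upstream of the members, the growth hormone receptor gene Ghr had only a dim probe, at the 39.5th brightness percentile, that did not enter. It read 275.7 at 17 days, 54.6 at 174 days and 191.3 under restriction, a difference of 0.42 for age and -0.66 for diet. After the correction for place these were 0.41 and -0.56. Jak2, the kinase bound to that receptor, was the lowest of the signalling list between the restricted and the 17-day mouse, at -0.76, and at -0.73 after the correction, but its dimmer probes were at 0.53 and -0.35. Stat3, a further STAT factor, was at -0.59 there, with its entering probes at -0.61 and -0.56 (-0.34 and -0.58 after the correction) and a dim probe at 0.07. Highest in that list was Sh2b1, an adaptor that binds JAK2, at 0.13. Stat5a, Stat5b, Socs2 and Igfals were in the lists, but no spot carried one of them as its single symbol.

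Of the SOCS family, 3 of 5 genes with a probe entered. In the diet comparison Socs7 was at 0.81 (0.52 after the correction for place), with a dim probe at -0.29. Socs6 was at -0.53 (-0.66 after the correction), with a dim probe at -0.48, and Cish at -0.60 (-0.15 after it) was the lowest of those that entered. Among ligands, receptors and carriers, 8 genes had a probe and 6 entered. Igf2, the fetal growth factor, was at -0.72 in the diet comparison, but at -0.19 after the correction for place, and its dim probe at 0.24. Igfbp3 and Igfbp4 were the lowest and the highest of the 6 in that comparison before the correction. After it Igfbp3 was at -0.35, above the brighter Igf1 probe at -0.37, and Igfbp4 was at 0.91. The receptor gene Igf1r had a dim probe at 0.09 for diet, and that of the carrier gene Igfbp5 was at -0.10.

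Proteases that cleave binding proteins were represented by Mmp2, a gelatinase, at 0.64 for age and -0.80 for diet, and by Adam17, a sheddase, at 0.21 and 0.19. After the correction for place Mmp2 was at 0.13 and -0.25 and Adam17 at 0.11 and 0.01, and a dim probe of Adam17 was at -0.29 for diet, another lying under the floor in all 3 mice. In receptor signalling, 12 of 19 genes with a probe entered. For diet they ran from Mtor at the low end to Grb2, an adaptor to the Ras pathway, at 0.21, whose dim probe was at -0.47. Between the restricted and the 17-day mouse the transcription factor Foxo3 was highest at 0.51 and Mtor lowest at -0.50, but after the correction for place these were 0.05 and -0.19. Among growth hormone responsive genes, 5 entered, 3 of them members. Beside these, Cyp7b1, a sterol hydroxylase with male-biased expression in mouse liver, was at -0.49 for age and -0.05 for diet, and Serpina6, the corticosteroid-binding globulin gene, at -0.31 for age.

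**Figure D5:**
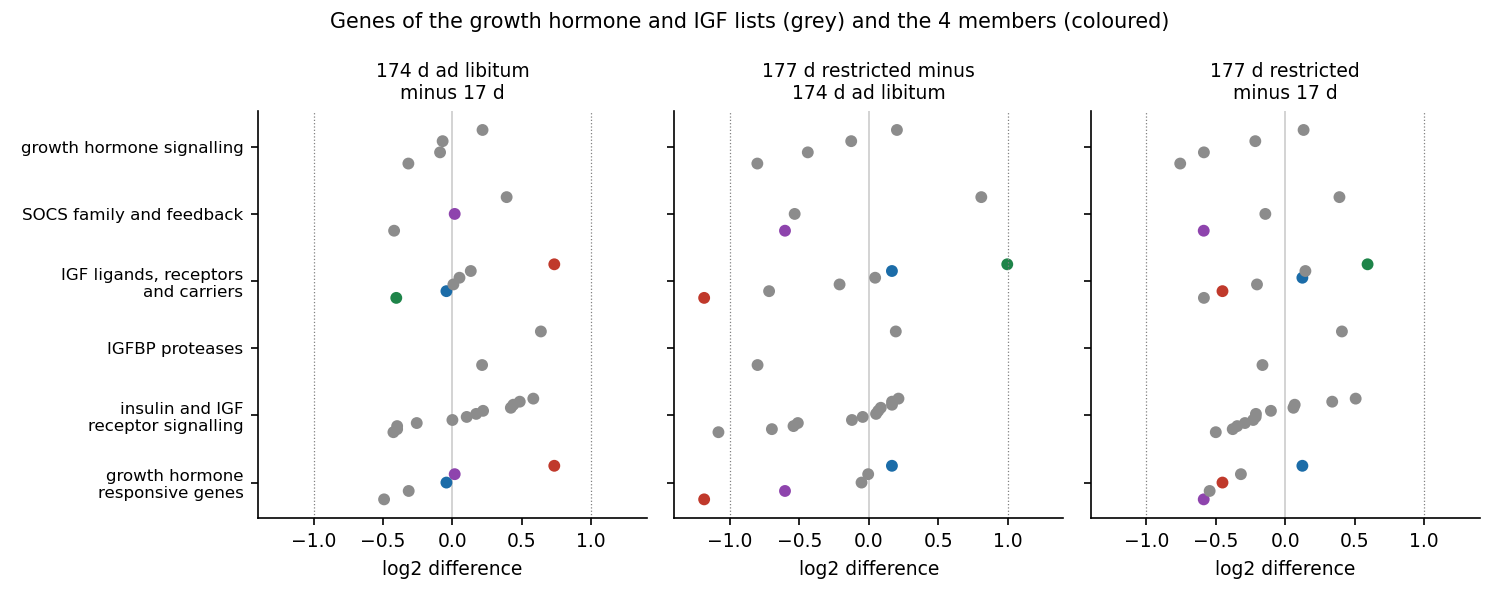
Log2 differences of genes with an entering probe in 6 lists of the growth hormone and IGF axis (rows) in the 3 comparisons (panels, 1 point per gene, the 4 members coloured as in the other plots, other genes grey, dotted lines at 2-fold). Most points lie within 2-fold of 0; Igfbp3 (-1.19) and Mtor (-1.08) lie past the line in the diet panel.

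Igfbp3 in liver is known to come largely from cells other than hepatocytes, so markers of such cells were read beside it. Of 14 endothelial markers 4 had a probe and 2, Pecam1 and Ehd3, entered, and their summed normalized intensity was 2472 at 17 days, 1897 at 174 days and 2338 under restriction. The markers did not run alike: for diet Ehd3 was at 0.70 and Pecam1 at -0.14, and Pecam1 was lowest in the restricted mouse, as Igfbp3 was. Of the dim ones, Cdh5 was at -0.54 and Stab1 at 0.10. After the correction for place the diet differences were 0.20 for Cdh5, -0.43 for Stab1 and -0.36 for Pecam1. The Ehd3 probes, at 1.13 and 0.26 before it, were then at 0.44 and -0.27, so most of these directions depended on the correction. Of 14 Kupffer cell and macrophage markers 3 entered, C1qb, C1qc and Lyz2, with sums of 1922, 1653 and 1664. The stellate cell and fibroblast list had 4 of 14 entering, with sums of 5092, 4946 and 4706. Their part in the Igfbp3 values was not tested. The list of markers of hepatocytes, which make most hepatic Igf1, had 5 of 20 entering, and their medians were -0.10 for age and -0.01 for diet. Alb alone was 1.18 higher in the restricted than in the 174-day mouse, but 0.55 higher, below 2-fold, after the correction for place.

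Genes with the most similar pattern to each member were taken by the distance of their age and diet differences over the 3 mice, in log2 units. These differences were not corrected for place, so spots could be near in pattern through their places on the array, which was not tested. Nearest to Igfbp3 were 4930594M22Rik at 0.025, Amn1 at 0.025 and the heme-responsive repressor gene Bach1 at 0.042. Nearest to Igfbp4 were Htra2, a mitochondrial protease gene, at 0.035, Tmc6 at 0.040 and Sh2d4a at 0.049. Rpf2, the chaperonin subunit gene Cct5 and the phosphate exporter gene Xpr1 were nearest to Igf1 (0.012 to 0.020), and Dmtf1, Gm14634 and Serinc2 to Cish (0.011 to 0.020). Within a distance of 0.1 lay 111 genes for Igf1, 71 for Cish, 23 for Igfbp4 and 13 for Igfbp3, of 3865 genes.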

How the data were processed

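Per the labels, total RNA from 3 male mouse livers, 1 mouse per group, was hybridised to arrays A and B (6 arrays in all). The deposited values were read as linear intensity, because all were above 0, with a long upper tail and unequal array medians. How the authors made the deposited intensity values is not given in the sources used here. Probes were named through GEO's platform annotation: 9663 of 16896 spots had 1 symbol, 436 several and 6797 none, and 9641 were matched by gene number to RefSeq names (GRCm38.p6), with 0 symbols changed. Of the columns of values, 0 were without a mouse.

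Values under the 5th percentile of an array were set to it, and log2 values of the 3 arrays of each kind were quantile-normalized together. A probe entered above the 50th percentile of mean level, and a gene took the median of its entering probes. A probe high in 1 mouse alone could enter in this way. The threshold was 2-fold. With 1 mouse per group no test was possible, and the number of arrays limits the precision. The place correction removed the median deviation of each block and of each place within blocks. The number of 16 blocks is the division of the spots at whose block length the ranked diet differences of spots correlated most (Pearson r = 0.512 on array B), since the sources used here give no layout. The steps were tested on simulated data with planted differences.

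The members, the lists and the settings were chosen with earlier results of these data known. Named genes were the members, the 3 nearest patterns of each, and, per list, genes past 2-fold or else the highest and lowest. Others, among them Ghr, Igf1r, Igfbp5, Igf2 and Stat3, were named after their values were seen. Values were computed in Python 3.11.15 with pandas 2.3.3 and numpy 2.4.6, the loess with statsmodels 0.14.6, and plots were drawn with matplotlib 3.10.9.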

Additional observations from a re-analysis of the deposited data

How the results depend on the processing

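An alternative was taken to move a member where it differed from the main value by more than the SD of probe differences within a gene. Unscaled intensities follow the brightness of the arrays. They gave Igf1 -2.75, Igfbp3 -1.86, Igfbp4 -3.01 and Cish -2.25 for age, and 2.56, 1.10, 3.24 and 1.29 for diet, so that Igfbp3 and Cish changed sign in the diet comparison. Then 4 members were 2-fold apart in each of these comparisons, as were 3862 of 3869 genes for age and 3833 of 3869 for diet. The place correction put Igfbp3 at 0.11 for age and -0.35 for diet, and place medians alone at 0.15 and -0.37. Median centring put Cish at 0.47 for age. In the diet comparison the count of members 2-fold apart was 2 with median centring, loess, block medians alone or a running median of 100 spots on either side, 3 at 1.5-fold, and 0 with the place correction, place medians alone or only the top 25% of probes, where Cish alone remained to be counted. At 1.5-fold it was 1 for age and 2 for the restricted against the 17-day mouse, beside 333 and 595 of 3865 genes. Of all genes in the diet comparison, 663 of 3869 were past the threshold with median centring and 293 of 3869 with loess. The count was 238 of 3866 with block medians alone, 227 of 3867 with the running median and 1103 of 3865 at 1.5-fold. It was 114 of 3869 with the place correction, 129 of 3871 with place medians alone and 84 of 1840 in the top 25%. On array A the members have no probe, so no value could be had.

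Counts over all genes past 2-fold moved more. For age, 45 became 75 with median centring, 3862 unscaled, 230 without the brightness filter, 10 in the top 25%, 333 at 1.5-fold, 14 on array B alone and 25 without spots apart in 1 mouse. For diet, 265 became 663, 3833, 532, 84 and 1103 under the first 5 of these, 154 on array A, 144 on array B, 114 with the place correction and 129 with place medians alone. For the restricted against the 17-day mouse, 61 became 138 unscaled, 35 in the top 25%, 595 at 1.5-fold, 11 on array B, 40 with the place correction, 35 with place medians alone and 39 with the running median. Block medians alone, place medians alone and the running median were chosen after seeing the data. Dimness of the 174-day array limits every comparison that uses it.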

Other observations

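Markers of further cell types and tissues were read beside the members. Of 12 erythroid markers 4 entered, with medians of -0.15 for age, 0.17 for diet and 0.06 for the restricted against the 17-day mouse. Of these, 0 were 2-fold apart in the same comparisons, beside 1.16%, 6.86% and 1.58% of all genes. Of 7 bile duct markers Krt7 (0.07 for diet) and Epcam (-0.72 for diet) entered. Of 6 pancreas markers Cpa1 entered, at 0.20 for diet, and of 6 muscle markers 0 had a probe.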
